A study of Mus musculus with 18 samples.

Results

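The genes described here are Hmgcs1, Sqle, Idi1, Insig1, Fdft1, Lss, Dhcr7 and Cyp51, which are 7 enzymes of cholesterol synthesis and INSIG1, a regulator of that synthesis. Each was taken as the probe set, the array's unit of several short probes for 1 transcript, whose platform annotation names that symbol alone. Where a gene had more than 1 such probe set, the one with the highest mean over 18 arrays was used. All 8 genes were measured, among 19938 genes with a probe set of their own. Total RNA of mouse stem cell cultures had been hybridised to Affymetrix Mouse Gene 1.0 ST arrays, 300 ng per array, in 6 groups of 3 biological replicates. The undifferentiated groups were embryonic stem (ES) cells and stem cells grown from the adult germ line (adult cells below), each of the 129SV background and of a background labelled Stra8-EGFP/Rosa26, called Stra8 below. The differentiated groups were ES and adult cells of 129SV, with no differentiated Stra8 counterpart analysed here. The labels give neither the differentiation protocol and its duration, nor the presence of feeder cells, nor the number of lines or cultures behind the replicates, so p-values measure only the spread between these samples. The series title sets the adult cells beside ES cells, and the design asks in what they differ.

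Cells build cholesterol from acetyl-CoA through mevalonate and the isoprenoids to squalene, which is then closed into a ring and trimmed to cholesterol. The transcription factor SREBP-2 drives most genes of the pathway. When sterols are plentiful, INSIG1 and INSIG2 hold SREBP and its escort SCAP in the endoplasmic reticulum, so that SREBP is not cut and does not reach the nucleus. Insig1 is itself an SREBP target, whereas Insig2 in most tissues is not. In the mouse embryo the pathway also feeds the visceral endoderm, which secretes lipoproteins, and sterol modification of Hedgehog proteins.

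RefSeq promoter windows (GRCm38.p6, 250 bases before to 50 after a start site) were available here for 6 of the 8 genes. The bases before the annotated gene start are shown for both genes that were higher after differentiation in ES and adult cells alike (Hmgcs1 and Insig1), and for the 2 of the genes lower in both that had a window (Idi1 and Lss). Capitals mark matches on either strand to TCACNCCAC, a core of the sterol regulatory element that SREBP binds, to CCAAT, the box bound by NF-Y, and to GGGCGG, the box bound by Sp1. Both NF-Y and Sp1 are known partners of SREBP.
Hmgcs1, + strand, chr13:119690101-119690350: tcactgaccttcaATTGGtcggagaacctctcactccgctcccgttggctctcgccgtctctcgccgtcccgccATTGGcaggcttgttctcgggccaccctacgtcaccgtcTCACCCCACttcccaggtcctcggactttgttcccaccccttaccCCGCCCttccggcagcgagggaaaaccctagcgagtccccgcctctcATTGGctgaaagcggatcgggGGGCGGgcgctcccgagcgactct
Insig1, + strand, chr5:28071162-28071411: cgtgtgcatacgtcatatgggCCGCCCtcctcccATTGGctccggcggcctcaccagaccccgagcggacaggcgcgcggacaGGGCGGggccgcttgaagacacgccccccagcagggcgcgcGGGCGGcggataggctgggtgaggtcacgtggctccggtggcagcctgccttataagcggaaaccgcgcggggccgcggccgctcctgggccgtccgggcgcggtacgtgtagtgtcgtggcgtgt
Idi1, + strand, chr13:8885356-8885605: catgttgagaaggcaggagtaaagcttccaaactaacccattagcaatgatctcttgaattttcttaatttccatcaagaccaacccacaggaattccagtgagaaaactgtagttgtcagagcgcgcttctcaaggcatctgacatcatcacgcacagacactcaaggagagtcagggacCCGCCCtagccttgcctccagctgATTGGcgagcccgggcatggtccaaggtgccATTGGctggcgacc
Lss, + strand, chr10:76531355-76531564: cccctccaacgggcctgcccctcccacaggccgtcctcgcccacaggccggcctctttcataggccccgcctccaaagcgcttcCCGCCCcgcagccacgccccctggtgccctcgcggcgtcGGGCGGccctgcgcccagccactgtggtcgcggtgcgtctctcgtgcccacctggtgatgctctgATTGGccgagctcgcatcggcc
The sterol element core TCACCCCAC was found in the window of Hmgcs1, from -137 to -129 of the start site, and in 0 of the other 5 genes with a window. It occurs in 1.24% of all 32851 mouse windows of this length. The 6 genes have 8 windows, since Dhcr7 has 3 start sites, of which CCAAT was found in 6, or 1 of 3 for Dhcr7, and GGGCGG in 7, or 2 of 3 for Dhcr7. Of all windows 37.4% hold CCAAT and 35.7% hold GGGCGG. Each of the 6 genes had both in at least 1 of its windows. No matches overlap one another in these 4 sequences. Of 14 other pathway enzymes listed, 11 had a window. These include Acat2, whose expression was not measured, and leave out Fdps, whose expression was measured. Their 12 windows held the core in 0, CCAAT in 10 and GGGCGG in 10. A match is a description of these letters and not a binding site. Variants of the core and bases outside the windows were not searched. A window without a match therefore does not show that a gene lacks a sterol regulatory element.

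The authors deposited log2 signals made with RMA, and all values below are on that scale, where a difference of 1 is a 2-fold difference. Array medians ran from 7.22 to 7.38. Replicate 3 of differentiated ES cells stood apart from its group, with a mean correlation across genes of 0.992 to its replicates against 0.994 to 0.998 for the other arrays, and calls of the 8 genes that change without it are given beside them. The word called stands for a limma p below 0.05 after Benjamini-Hochberg adjustment, made per comparison across 19938 genes in a fit to all 18 arrays. Pou5f1, the pluripotency factor, averaged 12.60 (ES 129SV), 12.56 (adult 129SV), 12.28 (ES Stra8) and 12.26 (adult Stra8), and fell to 9.46 and 10.09 in the differentiated ES and adult cells. Each array measured total RNA of a culture and not of single cells, so fewer cells of a type and less RNA per cell cannot be told apart.

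**Figure D1:**
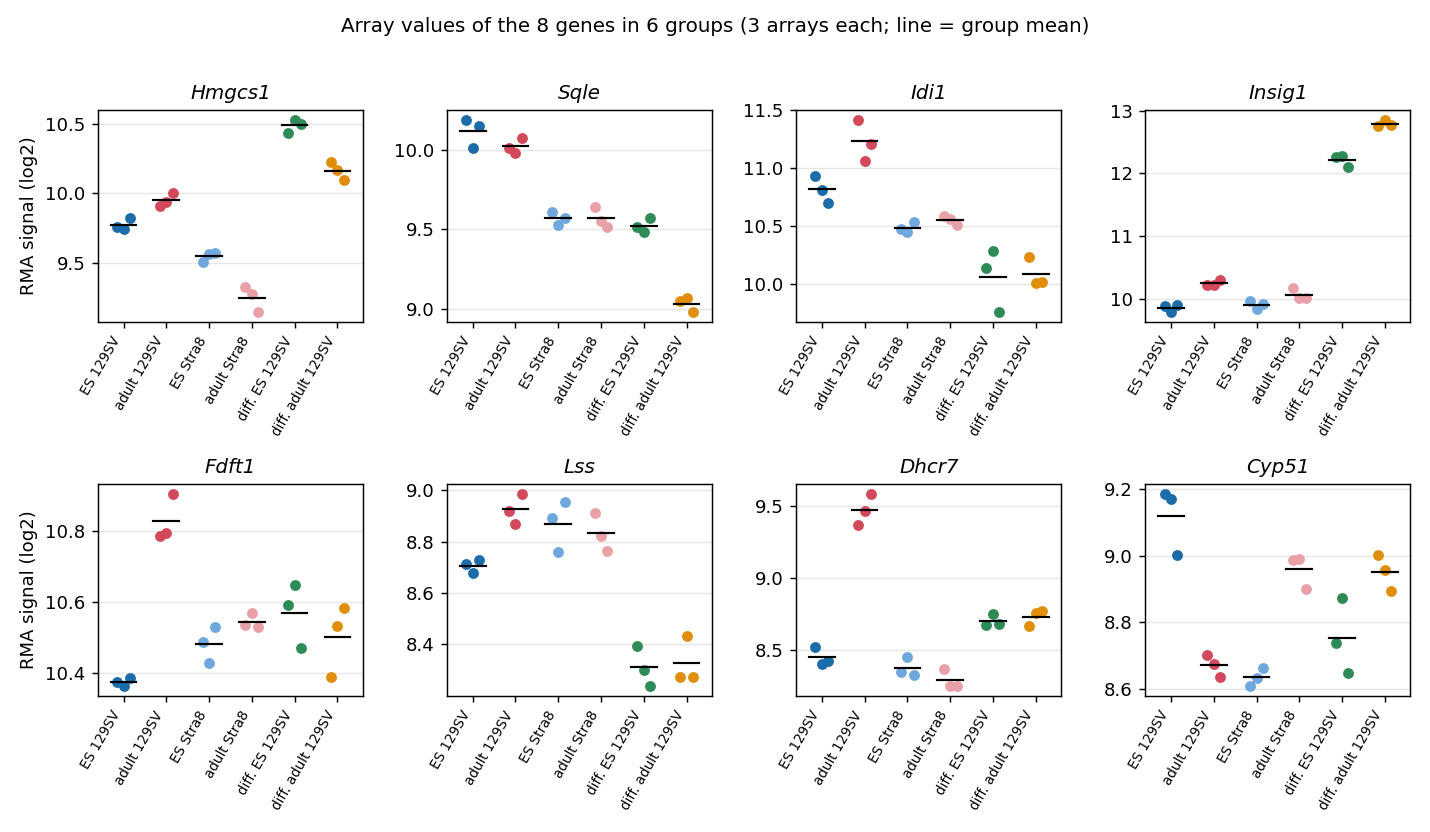
Log2 RMA signal of each of the 8 genes (vertical axis, own range per panel) on each of 18 arrays, by group; points are arrays and lines are group means of 3 arrays. Insig1 lies between 9.79 and 10.30 in the undifferentiated groups and between 12.10 and 12.86 in the differentiated ones, while Dhcr7 stands highest in adult 129SV cells, at 9.37 to 9.58.

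Insig1 (chr5:28071412-28078662, GRCm38.p6) encodes the sterol-dependent anchor of SCAP and SREBP in the endoplasmic reticulum. It read 9.89, 9.79 and 9.90 (ES 129SV), 10.22, 10.23 and 10.30 (adult 129SV), 9.96, 9.84 and 9.92 (ES Stra8), and 10.17, 10.01 and 10.02 (adult Stra8). In differentiated cells it read 12.26, 12.28 and 12.10 (ES) and 12.75, 12.86 and 12.77 (adult). The 6 differentiated arrays lay above all 12 undifferentiated ones, without overlap. Insig1 rose with differentiation by 2.35 ± 0.064 (SE, 3 against 3 arrays, limma adjusted p = 1.08e-14), or 5.11-fold, in ES cells. The rise was 2.54 ± 0.064 (adjusted p = 7.41e-15), or 5.83-fold, in adult cells. The responses of the 2 cell types differed by 0.19 (95% interval -0.0031 to 0.38, limma adjusted p = 0.1004), which was not called. The span of its group means, 2.93, was wider than that of 98.3% of genes tested. In the order of levels, differentiated adult cells stood above differentiated ES cells, these above adult 129SV and these above adult Stra8, each step called. Arrays of adult Stra8 and ES Stra8 did not overlap, but this step and that from ES Stra8 to ES 129SV were not called.

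Hmgcs1 (chr13:119690351-119708260) encodes the cytosolic HMG-CoA synthase, which makes the precursor of mevalonate. It read 9.76, 9.74 and 9.82 (ES 129SV), 9.91, 9.93 and 10.004 (adult 129SV), 9.51, 9.56 and 9.57 (ES Stra8) and 9.32, 9.28 and 9.15 (adult Stra8). It read 10.44, 10.53 and 10.4999 in differentiated ES and 10.23, 10.17 and 10.10 in differentiated adult cells. No 2 groups overlapped, and each of the 5 neighbouring steps was called, from differentiated ES cells at the top to adult Stra8 cells at the bottom. Hmgcs1 was the sole gene of the 8 for which this held. The step between adult 129SV and ES 129SV lost its call with arrays centred on a common median (0.13, limma adjusted p = 0.0807). The same held without ES 129SV replicate 1 or 2 or adult 129SV replicate 3. Hmgcs1 rose with differentiation by 0.71 ± 0.057 in ES cells (limma adjusted p = 1.06e-08) and by 0.21 ± 0.057 in adult cells (adjusted p = 0.00381). The smaller rise lost its call with arrays centred on a common median (0.12, adjusted p = 0.0975) or quantile-normalised (0.12, adjusted p = 0.0539). The rise in adult cells was smaller than that in ES cells by 0.50 (interaction, limma adjusted p = 9.5e-05).

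Idi1 (chr13:8885606-8892396) encodes isopentenyl-diphosphate isomerase, which interconverts the 5-carbon building blocks of all isoprenoids. It has 2 probe sets. The 20 named probe sets nearest by number to the one used lie on chromosome 2 in 19 cases and on chromosome 13, where the gene lies, in 0. Those nearest to the other Idi1 probe set lie on chromosome 13 in 20 of 20 cases. The annotation used here does not say which locus each reads, so the changes on both are given. The probe set used read 10.93, 10.81 and 10.70 (ES 129SV), 11.42, 11.06 and 11.21 (adult 129SV), 10.48, 10.45 and 10.53 (ES Stra8) and 10.59, 10.56 and 10.51 (adult Stra8). It read 10.14, 10.28 and 9.76 in differentiated ES and 10.23, 10.01 and 10.02 in differentiated adult cells. All 6 differentiated arrays lay below all 12 undifferentiated ones. Idi1 fell with differentiation by 0.76 ± 0.115 in ES cells (limma adjusted p = 2.24e-05; the change was -0.80 on the other probe set, and -0.61 without replicate 3 of differentiated ES cells). It fell by 1.14 ± 0.115, or 2.21-fold, in adult cells (adjusted p = 1.65e-07; the change was -1.08 on the other probe set). The difference between the falls, -0.39, was not called (adjusted p = 0.0613), but was called without replicate 3 of differentiated ES cells (-0.54, adjusted p = 0.00334) and under 8 other settings. On the other probe set that difference was -0.29 (adjusted p = 0.151). There Idi1 was higher in adult than in ES 129SV cells by 0.35 (adjusted p = 0.0156) and differed by 0.027 in Stra8 cells. It was lower in Stra8 than in 129SV by 0.31 in ES cells and by 0.64 in adult cells (the differences were -0.31 and -0.64, adjusted p = 0.0322 and 0.000126).

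Fdft1 (chr14:63145150-63181687) encodes squalene synthase, the first enzyme committed to sterols. Its range was the narrowest of the 8 genes, with group means between 10.37 and 10.83. It read 10.37, 10.36 and 10.38 (ES 129SV), 10.79, 10.80 and 10.90 (adult 129SV), 10.49, 10.43 and 10.53 (ES Stra8) and 10.53, 10.57 and 10.53 (adult Stra8). It read 10.59, 10.65 and 10.47 in differentiated ES and 10.39, 10.53 and 10.58 in differentiated adult cells. On the probe set used, adult 129SV cells stood above the other 5 groups without overlap, and among these 5 no neighbouring pair was called. The other probe set did not separate adult Stra8 from adult 129SV cells (-0.030, limma adjusted p = 0.744). There adult 129SV cells were higher than ES 129SV cells by 0.26 (limma adjusted p = 0.00544). Fdft1 rose with differentiation in ES cells by 0.20 ± 0.061 (limma adjusted p = 0.0117) and fell in adult cells by 0.33 ± 0.061 (adjusted p = 0.000187). The rise was no longer called with centred arrays (0.071, adjusted p = 0.372), on the other Fdft1 probe set (0.090, adjusted p = 0.289) or without replicate 2 of differentiated ES cells (0.16, adjusted p = 0.0554). The fall kept its call on the other probe set (-0.23, adjusted p = 0.00896).

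Sqle (chr15:59315092-59331193) encodes squalene epoxidase, a rate-limiting enzyme of the sterol stage of the pathway. It read 10.19, 10.01 and 10.15 (ES 129SV), 10.01, 9.98 and 10.08 (adult 129SV), 9.61, 9.53 and 9.57 (ES Stra8) and 9.64, 9.55 and 9.51 (adult Stra8). It read 9.51, 9.48 and 9.57 in differentiated ES and 9.05, 9.07 and 8.98 in differentiated adult cells. The groups formed 3 levels. Undifferentiated 129SV cells of both origins were at the top and overlapped, both Stra8 groups and differentiated ES cells were in the middle and overlapped, and differentiated adult cells were lowest. The steps between levels were called and those within were not. Sqle fell with differentiation by 0.60 ± 0.058 in ES cells (limma adjusted p = 1.20e-07) and by 0.99 ± 0.058 in adult cells (adjusted p = 1.79e-10). The fall in adult cells was larger by 0.39 (the interaction was -0.39, adjusted p = 0.000868).

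Lss (chr10:76531565-76557139) encodes lanosterol synthase, which folds epoxidised squalene into the first sterol. It read 8.71, 8.68 and 8.73 (ES 129SV), 8.92, 8.87 and 8.99 (adult 129SV), 8.89, 8.76 and 8.95 (ES Stra8) and 8.91, 8.82 and 8.76 (adult Stra8). It read 8.40, 8.30 and 8.24 in differentiated ES and 8.27, 8.43 and 8.27 in differentiated adult cells. The 4 undifferentiated groups lay above the 2 differentiated ones without overlap, and that step was the sole neighbouring step called. Lss fell with differentiation by 0.40 ± 0.067 in ES cells (limma adjusted p = 6.85e-05) and by 0.60 ± 0.067 in adult cells (adjusted p = 5.96e-07). The difference between these falls, -0.20, was not called (adjusted p = 0.0904), but was called with quantile normalisation (-0.29, adjusted p = 0.00581), with array weights (-0.25, adjusted p = 0.0266) and without replicate 2 of differentiated adult cells (-0.26, adjusted p = 0.0413).

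Cyp51 (chr5:4080674-4104697) encodes lanosterol 14-alpha-demethylase, the first step from lanosterol. It read 9.19, 9.17 and 9.001 (ES 129SV), 8.70, 8.67 and 8.64 (adult 129SV), 8.61, 8.63 and 8.66 (ES Stra8) and 8.99, 8.99 and 8.90 (adult Stra8). It read 8.74, 8.87 and 8.65 in differentiated ES and 9.002, 8.96 and 8.89 in differentiated adult cells. ES 129SV, adult Stra8 and differentiated adult cells made up the upper range, and the other 3 groups the lower one, with the called step between differentiated adult and differentiated ES cells. Without replicate 3 of differentiated ES cells that step was no longer called (0.14, limma adjusted p = 0.110). The call was also lost with quantile normalisation (0.14, adjusted p = 0.0805) and without some other single arrays. Cyp51 fell with differentiation in ES cells by 0.37 ± 0.064 (limma adjusted p = 0.000106) and rose in adult cells by 0.28 ± 0.064 (adjusted p = 0.00121), and the responses differed by 0.65 (adjusted p = 2.34e-05).

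Dhcr7 (chr7:143823167-143848410) encodes 7-dehydrocholesterol reductase, which makes cholesterol in the last step. It read 8.52, 8.40 and 8.42 (ES 129SV), 9.37, 9.46 and 9.58 (adult 129SV), 8.35, 8.45 and 8.33 (ES Stra8) and 8.37, 8.25 and 8.25 (adult Stra8). It read 8.67, 8.75 and 8.68 in differentiated ES and 8.67, 8.76 and 8.77 in differentiated adult cells. Adult 129SV cells stood above all other groups, and the lowest of their 3 arrays exceeded the highest array elsewhere (8.77). Dhcr7 rose with differentiation in ES cells by 0.25 ± 0.063 (limma adjusted p = 0.00257), a call lost with centred arrays (0.13, adjusted p = 0.110). It fell in adult cells by 0.74 ± 0.063 (adjusted p = 2.24e-08). The difference between differentiated adult and ES cells was 0.029 (95% interval -0.11 to 0.16, limma adjusted p = 0.768).

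Each of the 8 genes was called with differentiation in ES and in adult cells, in mixed directions. With centred arrays the calls of Fdft1 and Dhcr7 in ES cells and of Hmgcs1 in adult cells were lost. That of Fdft1 was also lost on its other probe set. In ES cells 4 rose and 4 fell, against a background of 55.2% of all genes called in that comparison (27.9% higher, 27.3% lower). In adult cells 3 rose and 5 fell, against 59.7% of all genes (27.5% higher, 32.2% lower). The arrays of the compared groups did not overlap for 8 of 8 genes in either cell type, where 58% and 62.6% of all genes showed no overlap. Insig1 and Hmgcs1 rose in both cell types. Sqle, Idi1 and Lss fell in both. Fdft1 and Dhcr7 rose in ES cells and fell in adult cells, and Cyp51 did the opposite. The 2 comparisons share no arrays. The median change of the 8 genes was -0.085 in ES cells, beside 0.047 over all genes, and -0.46 in adult cells, beside -0.080. Centring the arrays lowered the median change of all genes by 0.13 in ES cells and 0.10 in adult cells, and then 2 of the 8 rose in ES cells. Without replicate 3 of differentiated ES cells the counts in ES cells were again 4 and 4, with changes between -0.62 (Sqle) and 2.41 (Insig1). The responses of the 2 cell types differed for 5 of the 8 genes, against 45.7% of all genes in that interaction. It was higher in adult cells for 1 (Cyp51), against 24.2%, and lower for 4 (Hmgcs1, Sqle, Fdft1 and Dhcr7), against 21.5%.

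**Figure D2:**
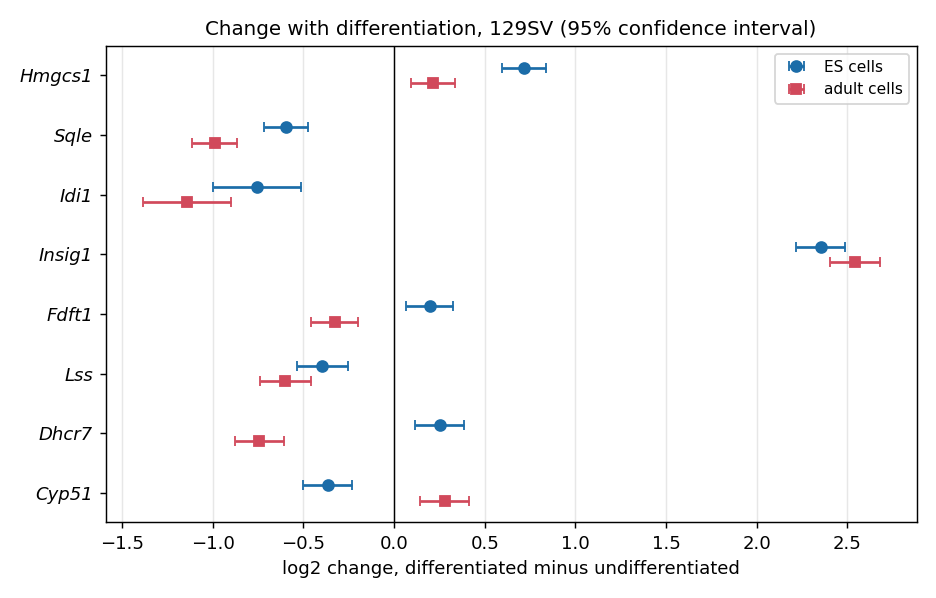
Log2 change with differentiation (horizontal axis, differentiated minus undifferentiated, 129SV) of each of the 8 genes in ES cells (circles) and adult cells (squares), with 95% confidence intervals from limma, 3 arrays per group. Insig1 rose by 2.35 and 2.54, while Dhcr7 lay at 0.25 in ES cells and -0.74 in adult cells.

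Between the undifferentiated cells of 129SV, 6 of the 8 genes were higher in adult than in ES cells and 1 was lower, against 46.1% of all genes called (23% higher, 23.1% lower). Dhcr7 differed most, by 1.02 ± 0.063 or 2.03-fold (limma adjusted p = 1.2e-09). Fdft1 was higher by 0.46 (adjusted p = 1.03e-05), Idi1 by 0.41 (adjusted p = 0.00675) and Insig1 by 0.39 (adjusted p = 8.4e-05). Lss was higher by 0.22 (adjusted p = 0.0127) and Hmgcs1 by 0.17 (adjusted p = 0.0194). The call of Hmgcs1 was lost with centred arrays (adjusted p = 0.0807) and without replicate 1 or 2 of ES 129SV or replicate 3 of adult 129SV, and that of Lss without the last of these (0.19, adjusted p = 0.0539). Without adult 129SV replicate 3, 4 of the 8 genes were called higher. Cyp51 was lower by 0.45 (limma adjusted p = 2.07e-05). Sqle did not pass the test (-0.095, 95% interval -0.22 to 0.028). The median difference of the 8 genes was 0.30, beside 0.060 over all genes, and the groups did not overlap for 7 of 8, beside 56.8% of all genes.

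In the Stra8 background the same comparison called 2 of the 8 genes, 1 higher and 1 lower, against 28.3% of all genes (13.2% higher, 15.1% lower). The groups did not overlap for 4 of 8, beside 47.6% of all genes. Hmgcs1 was lower in adult than in ES cells by 0.30 (limma adjusted p = 0.00083) and Cyp51 was higher by 0.32 (adjusted p = 0.00105), each opposite to its direction in 129SV. Dhcr7, which differed most in 129SV, showed a difference of -0.090 (95% interval -0.22 to 0.045). Fdft1 and Idi1 showed differences of 0.063 and 0.066, with intervals of -0.067 to 0.19 and -0.18 to 0.31. Insig1 differed by 0.16 and did not pass (adjusted p = 0.0752), although it was called under 4 of the alternative settings and without replicate 3 of differentiated ES cells. The difference between the backgrounds was itself called for Hmgcs1 (-0.47), Fdft1 (-0.39), Lss (-0.26), Dhcr7 (-1.11) and Cyp51 (0.77), which is 5 of 8 against 43.1% of all genes, with 1 higher against 21.3% and 4 lower against 21.8%. For Fdft1 it was not called on the other probe set (-0.15, adjusted p = 0.229). For Lss it was not called with centred arrays (-0.21, adjusted p = 0.111), nor when any 1 of 9 arrays was left out. It was not called for Insig1 (-0.23, adjusted p = 0.0522) and Idi1 (-0.35, adjusted p = 0.0988; -0.32 on the other probe set, adjusted p = 0.113), but was called under 9 and 4 other settings. Without replicate 3 of differentiated ES cells both were called (adjusted p = 0.0277 and 0.0294), and 6 genes were then lower.

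**Figure D3:**
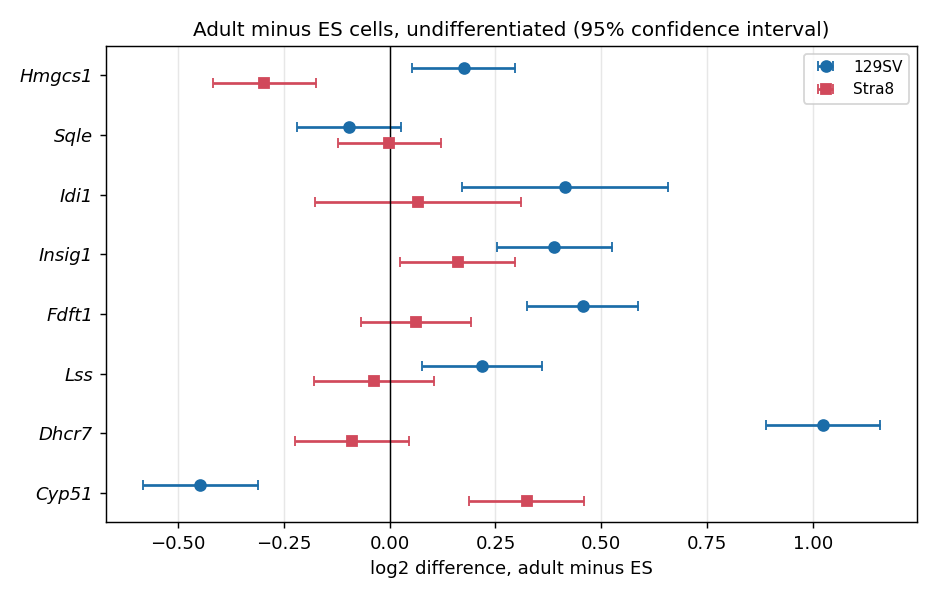
Log2 difference between undifferentiated adult and ES cells (horizontal axis, adult minus ES) of each of the 8 genes in 129SV (circles) and Stra8 (squares), with 95% confidence intervals from limma, 3 arrays per group. Dhcr7 lies at 1.02 in 129SV and -0.090 in Stra8, and Cyp51 and Hmgcs1 change sign between the backgrounds.

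Set against 129SV cells of the same origin, Stra8 cells were lower for most of the genes called. In ES cells 4 of 8 were lower and 0 higher, against 41.4% of all genes called (21.3% higher, 20% lower), and these were Sqle (-0.55), Cyp51 (-0.48), Idi1 (-0.33) and Hmgcs1 (-0.23). The call of Idi1 was lost when any 1 of 4 arrays was left out, with adjusted p up to 0.118. In adult cells 6 were lower and 1 was higher, against 51% of all genes (24.2% higher, 26.8% lower). The groups did not overlap for 6 of 8 genes in ES cells, beside 56.9% of all genes, and for 7 of 8 in adult cells, beside 60.1%. Dhcr7 was lower by 1.19 (the difference was -1.19 ± 0.063, limma adjusted p = 2.31e-10), Hmgcs1 showed -0.70, Idi1 -0.68, Sqle -0.45, Fdft1 -0.28 and Insig1 -0.18, whereas Cyp51 was higher by 0.29. The call of Fdft1 rested on the probe set, with -0.030 (adjusted p = 0.744) on the other. That of Insig1 was lost without adult 129SV replicate 3 or adult Stra8 replicate 2 or 3, with adjusted p of 0.0891 to 0.103. The comparison in adult cells and the comparison of origins in 129SV share the adult 129SV arrays.

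Between the differentiated groups 2 of the 8 genes were higher in adult-derived cells and 2 were lower, against 32.2% of all genes (19.4% higher, 12.8% lower), and the groups did not overlap for 4 of 8, beside 37.6%. Insig1 was higher by 0.58 ± 0.064 (limma adjusted p = 2.96e-06) and Cyp51 by 0.20 (adjusted p = 0.0263). Sqle was lower by 0.49 (the difference was -0.49, adjusted p = 5.88e-06), and Hmgcs1 showed -0.33 (adjusted p = 0.00031). Without replicate 3 of differentiated ES cells Cyp51 was no longer called (0.14, adjusted p = 0.110), as was the case without replicate 1 of differentiated ES cells or replicate 1 or 2 of differentiated adult cells, and Idi1 and Lss then read -0.12 and -0.021. Idi1, Fdft1, Lss and Dhcr7 differed by 0.026, -0.069, 0.016 and 0.029, and 0 of these 4 was called.

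The other enzymes of the pathway came from a list of 14, of which 11 were measured. Together with the 7 enzymes above they gave 18, of which 7 act before squalene (Hmgcs1, Mvk, Pmvk, Mvd, Idi1, Fdps and Fdft1) and 11 after it. HMG-CoA reductase and Acat2, which also act before squalene, are not among the 18. This split was made after the values were seen and is given as counts, without a test. In adult against ES 129SV cells 7 of 7 measured enzymes before squalene were higher. After squalene 2 were higher, 6 were lower and 3 were not called, beside 23% of all genes higher and 23.1% lower. The mevalonate enzymes were higher by 0.37 (Mvk, mevalonate kinase), 0.60 (Pmvk, phosphomevalonate kinase) and 0.82 ± 0.080 (Mvd, the decarboxylase that makes the first isoprenoid unit). Fdps, which makes farnesyl diphosphate, was higher by 0.68 ± 0.110. The lower sterol enzymes were Sc5d (-1.16), the sterol desaturase, Lbr (-0.70) and Tm7sf2 (-0.46), both sterol C14 reductases, Cyp51, Ebp (-0.38), a sterol isomerase, and Msmo1 (-0.25), the C4 methyl oxidase. Dhcr7 and Lss were the 2 higher ones. With centred arrays 6 of the 7 enzymes before squalene were called, Hmgcs1 being lost, and none changed direction. In Stra8 cells 0 of the 7 were higher, 2 were lower (Hmgcs1, and Mvd at -0.26, a call lost when any 1 of 4 arrays was left out) and 5 were not called. After squalene 4 were higher, namely Hsd17b7 (0.65), Sc5d (0.66), Lbr (0.30) and Cyp51, 6 were not called, and Tm7sf2 was lower (-0.25, a call lost when any 1 of 3 arrays was left out). Of all genes 13.2% were higher and 15.1% lower there.

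With differentiation in ES cells 13 of the 18 enzymes fell, 3 rose and 2 were not called, beside 27.3% of all genes lower and 27.9% higher. The largest fall among the 11 enzymes outside the 8 genes was that of Hsd17b7, a sterol ketoreductase (-0.998 ± 0.082, limma adjusted p = 1.38e-08), followed by Nsdhl, the C4 decarboxylating enzyme (-0.59), and Fdps (-0.58). Mvd (-0.45), Lbr (-0.41), Mvk (-0.25), Sc5d (-0.23), Tm7sf2 (-0.23) and Pmvk (-0.20) also fell, and Msmo1 (0.12) and Ebp (-0.18) were not called. The call of Pmvk was lost when any 1 of 13 arrays was left out, and that of Tm7sf2 without ES 129SV replicate 2 or differentiated ES replicate 2. Without replicate 3 of differentiated ES cells Msmo1 was called higher (0.19). In adult cells 11 fell, 6 rose and 1 was not called, beside 32.2% of all genes lower and 27.5% higher. There 6 of the 7 enzymes before squalene fell, Fdps by 1.12 and Mvd by 1.08 (their changes were -1.12 and -1.08), Pmvk by 0.89 and Mvk by 0.83, and Hmgcs1 alone rose. After squalene 5 fell and 5 rose, the latter being Ebp (0.57), Sc5d (0.53), Msmo1 (0.36), Lbr (0.26) and Cyp51. Nsdhl (-0.67) and Hsd17b7 (-0.45) fell. These differentiation changes in adult cells and the origin differences in 129SV share the adult 129SV arrays, in which 6 of the 7 enzymes before squalene (all but Hmgcs1) had their highest group mean.

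**Figure D4:**
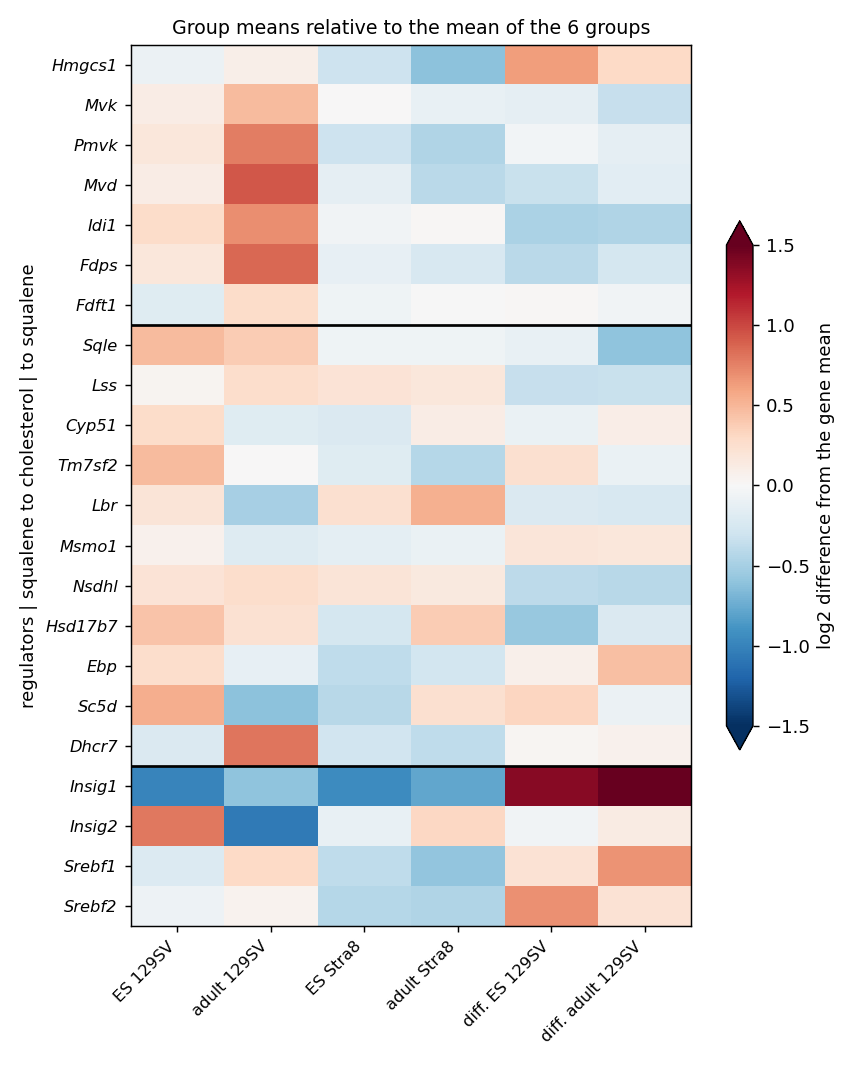
Group means of 18 enzymes in pathway order (7 up to squalene, then 11 to cholesterol) and of the regulators Insig1, Insig2, Srebf1 and Srebf2, each as log2 difference from the gene's mean over the 6 groups (colour scale). Mvd, Fdps, Pmvk and Idi1 reach 0.93, 0.86, 0.76 and 0.69 in adult 129SV cells, and Insig2 lies at -1.06 there.

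Of 6 regulators of SREBP listed besides Insig1, 5 were measured. Insig2, the second anchor protein, was lower in adult than in ES 129SV cells by 1.85 (the difference was -1.85 ± 0.064, limma adjusted p = 1.13e-12). Its arrays ran from 10.34 to 10.45 in ES 129SV, from 8.37 to 8.65 in adult 129SV, from 9.44 to 9.51 in ES Stra8 and from 9.87 to 9.95 in adult Stra8. They ran from 9.52 to 9.55 in differentiated ES and from 9.66 to 9.76 in differentiated adult cells, so no 2 groups overlapped. Insig2 fell with differentiation in ES cells (-0.85) and rose in adult cells (1.18), and the responses differed by 2.03 (limma adjusted p = 3.99e-11). Insig1 rose in both cell types, as above. Srebf2, which encodes SREBP-2, rose by 0.76 ± 0.050 in ES cells and by 0.17 in adult cells, and the latter call was lost with centred (0.066) or quantile-normalised arrays (0.11). Srebf1, which encodes SREBP-1, rose by 0.42 and 0.37. Mbtps1, the protease that cuts SREBP first, rose by 0.56 and 0.90. Scap showed -0.14 (not called) in ES cells and fell by 0.28 in adult cells. In adult against ES 129SV cells Srebf1 was higher by 0.50, and Scap (0.20), Mbtps1 (0.15) and Srebf2 (0.13) were higher as well, these 3 calls being lost with centred arrays and those of Srebf2 and Scap also without some single arrays.

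Among 10 genes of sterol uptake and transport, 8 were measured. In adult against ES 129SV cells 0 were higher and 5 were lower, beside 23% and 23.1% of all genes. Vldlr, the receptor for very low density lipoprotein, was lower by 3.14 (the difference was -3.14 ± 0.050, limma adjusted p = 1.73e-16), with arrays from 10.45 to 10.55 in ES and from 7.33 to 7.38 in adult cells. Npc2 (-0.95) and Npc1 (-0.58), which export cholesterol from lysosomes, and Lrp1 (-0.65), a lipoprotein receptor, were lower too. Stard4, a cytosolic sterol carrier, was the fifth (-0.29, limma adjusted p = 0.0193), a call lost without ES 129SV replicate 1 or adult 129SV replicate 1. In Stra8 cells Lrp1 (0.67), Npc2 (0.26) and Vldlr (0.20) were higher in adult than in ES cells, Osbp, a sterol carrier between endoplasmic reticulum and Golgi, was lower (-0.26), and 4 were not called, beside 13.2% and 15.1% of all genes higher and lower. With differentiation 4 rose and 4 fell in ES cells, and 6 rose, 1 fell and 1 was not called in adult cells, beside the shares of all genes given above for the enzymes. Vldlr fell in ES cells (-1.22) and rose in adult cells (1.73), and the responses differed by 2.95 (limma adjusted p = 4.14e-14). Osbp rose by 1.22 and 1.19, and Npc1 by 0.69 and 1.02. Scarb1, the receptor for high density lipoprotein, showed -0.53 and -0.58, both called. Lrp1 (-0.89) and Npc2 (-0.80) fell in ES cells, and in adult cells showed 0.15 (called, but not with centred arrays) and -0.033 (not called). Mylip, which encodes a ligase that marks lipoprotein receptors for degradation, rose by 0.57 and 0.22, the latter call being lost with centred or quantile-normalised arrays. Stard4 rose by 0.24 in ES cells, a call lost with centred arrays and when any 1 of 4 arrays was left out, and by 0.58 in adult cells.

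The 8 genes did not follow a common profile. Over the 6 group means, 17 of the 28 pairs of genes had a correlation above 0, of which 3 exceeded 0.8, and 11 pairs lay below 0. The closest pairs were Fdft1 with Dhcr7 (r = 0.86), Sqle with Idi1 (0.84) and Idi1 with Lss (0.83), and the most opposed was Insig1 with Lss (-0.93). These points are 6 group means from the same 18 arrays and carry no test. Among 5488 genes whose group means spanned at least 1, those most like the mean profile of the 8 genes were Uqcrh (r = 0.981), Mien1 (0.977), Map7d1 (0.956), Tmem231 (0.939) and Hcfc1r1 (0.937), over the same 6 means. The sign of that mean profile in differentiated cells depended on Insig1: differentiated ES and adult cells stood at 0.13 and 0.12 in it, and at -0.052 and -0.14 with Insig1 left out. Over the 6 groups the mean profile followed Dhcr7 (r = 0.85) and Hmgcs1 (0.81) more closely than Insig1 (0.58). Of the 8 genes 5 had a correlation below 0 with the mean of the other 7. Of the neighbouring steps in the order of levels of the 8 genes, 17 of 40 were called. These steps were set by sorting the same group means. No share over all genes is given beside this count, so it cannot be read as many or few.

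Genes on marker lists were also called in these comparisons, and their part in the results was not tested. The counts below stand beside the shares of all genes called. In adult against ES cells these were 46.1% in 129SV (23% higher, 23.1% lower) and 28.3% in Stra8 (13.2% higher, 15.1% lower). With differentiation they were 55.2% in ES cells (27.9% higher, 27.3% lower) and 59.7% in adult cells (27.5% higher, 32.2% lower). Fibroblast markers averaged 10.93 to 10.99 per array (ES 129SV), 9.65 to 9.70 (adult 129SV), 9.55 to 9.63 (ES Stra8) and 10.37 to 10.44 in adult Stra8. They averaged 8.27 to 8.31 in differentiated ES and 8.97 to 9.0003 in differentiated adult cells. Of the 14 markers 13 were lower in adult than in ES 129SV cells and 14 were higher in adult than in ES Stra8 cells. Dcn, which encodes the matrix proteoglycan decorin, averaged 12.67, 10.15, 11.74 and 12.49 in ES 129SV, adult 129SV, ES Stra8 and adult Stra8. With differentiation 13 of the 14 fell in ES cells, and in adult cells 10 fell and 4 rose. Endoderm markers averaged 7.29 to 8.15 on undifferentiated and 10.04 to 10.11 on differentiated arrays, and 11 of 12 rose in ES and 10 of 12 in adult cells, with Gata4 up by 3.32 and 4.40. Gata4 was not the largest of these changes. The mean of Lama1 went from 9.34 to 13.03 in ES cells and from 8.86 to 13.40 in adult cells. All 12 pluripotency markers fell in both, and of 9 cell cycle genes 7 fell and 1 rose in either. Neural markers, 7 measured of 8, averaged 6.997 to 7.05 (ES 129SV), 7.58 to 7.60 (adult 129SV), 7.32 to 7.38 (ES Stra8) and 7.16 to 7.22 (adult Stra8), and 7.14 to 7.38 on differentiated arrays. Of these 4 were higher and 1 lower in adult than in ES 129SV cells, and 1 was higher and 2 lower in Stra8. With differentiation 3 rose and 2 fell in ES and 2 rose and 3 fell in adult cells. Macrophage and blood markers, 6 measured of 8, averaged 6.88 to 7.3995 over the 18 arrays. Of these 0 were higher and 3 lower in adult than in ES 129SV cells, 3 were higher and 1 lower in Stra8, and 2 rose and 3 fell with differentiation in either. No detection call was available, so no marker can be stated as absent.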

How the data were processed

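The authors deposited log2 values for 18 arrays. Per the submitters' processing notes these came from RMA, run in Expression Console of Affymetrix; versions, and whether all arrays were normalised together, are not given in the sources used here. The values were used as deposited. Of 35556 probe sets, 21789 carried 1 symbol in the platform annotation, 1621 several and 12146 none here; 999 genes had several probe sets, and the one with the highest mean was used. A model with 6 group means was fitted with limma 3.58.1 to the 18 arrays together (R 4.3.3; lmFit, eBayes; 12 residual and 3.78 prior degrees of freedom), for 7 comparisons of groups and 2 interactions, with Benjamini-Hochberg adjustment over 19938 genes. The fit was checked on simulated data. Precision is limited by having 3 arrays in a group. The genes, gene lists and tests were chosen with earlier results of these data known. All 8 genes are named throughout. Enzymes, SREBP regulators and transport genes are named within their lists, and from the lists under other observations up to 2 called genes with the largest change. From the marker lists Pou5f1, Dcn and Gata4 are named, without a rule on the size of the change. Likeness was Pearson's r over the 6 group means. Genomic positions and promoter windows are those of RefSeq, GRCm38.p6. Genes of the lists that had no single-symbol probe set were not analysed here. Alternatives were other scalings, filters, probe sets, priors, array weights, fits to the compared groups alone, the replicate number as a block and each array left out in turn. No 2 arrays held identical values.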

Additional observations from a re-analysis of the deposited data

Results flagged for a closer look

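By an interaction test in limma, the difference between adult and ES cells differed between 129SV and Stra8 for 5 of the 8 genes. Of all genes this held for 43.1%. The labels do not give the number of lines, so background and line cannot be told apart. Stra8 minus 129SV, the difference of differences was -0.47 for Hmgcs1 (adjusted p = 0.000139), -0.39 for Fdft1 (adjusted p = 0.00133), -0.26 for Lss (adjusted p = 0.0374), -1.11 for Dhcr7 (adjusted p = 3.12e-08) and 0.77 for Cyp51 (adjusted p = 2.57e-06). For Fdft1 it was not called on the other probe set (-0.15, adjusted p = 0.229), and for Lss with centred arrays (-0.21, adjusted p = 0.111) or when any 1 of 9 arrays was left out. For Hmgcs1 and Cyp51 all 3 adult arrays lay on one side of all 3 ES arrays in 129SV and on the other side in Stra8.

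The response to differentiation differed between ES and adult cells for 5 of the 8 genes, beside 45.7% of all genes. Adult minus ES, the difference between the responses was -0.50 for Hmgcs1 (limma adjusted p = 9.5e-05), -0.39 for Sqle (adjusted p = 0.000868), -0.52 for Fdft1 (adjusted p = 0.000115), -0.99 for Dhcr7 (adjusted p = 1.62e-07) and 0.65 for Cyp51 (adjusted p = 2.34e-05). The adult 129SV and ES 129SV arrays enter both sets of differences.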

How the results depend on the processing

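The changes of the 8 genes in 9 comparisons gave 72 results, 50 of them called. Over 28 other settings, 18 of which left out 1 array, 1927 of 2016 values kept their direction and side of the threshold, 38 lost the call, 35 gained one and 16 changed sign, of which 0 belonged to a called result. Counts of called genes are given here where they moved by more than 1.5 times; other counts among the 8 genes moved by at most 2, such as 4 to 6 higher in adult against ES 129SV cells without single arrays. In differentiated against undifferentiated ES cells 2 of the 8 rose with centred arrays. In adult against ES Stra8 cells 2 were higher with quantile normalisation, without dim genes, with array weights or with a trended robust prior, and 8690 genes in all were called with array weights (5638 otherwise). In differentiated adult against ES cells 1 was higher with quantile normalisation or with only the compared groups, which called 3537 genes in all (6419 otherwise). In Stra8 against 129SV ES cells 1 was higher without dim genes and 2 with array weights. In the response to differentiation 2 were higher with the trended robust prior. Leaving out single arrays gave 1 to 2 higher genes in adult against ES Stra8 cells, 1 to 2 in differentiated adult against ES cells, and 0 to 1 in Stra8 against 129SV ES cells; the arrays were differentiated ES replicate 3, differentiated ES replicates 1 and 3 with differentiated adult replicates 1 and 2, and ES Stra8 replicate 2. The cause was not tested.

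Signs changed only for differences near 0. Sqle in adult against ES Stra8 cells read 0.0096 with centred arrays, 0.0284 with quantile normalisation and -0.0371 to 0.0276 without single arrays, and Lss there read -0.0923 to 0.0051 without single arrays. In differentiated adult against ES cells Idi1 read -0.0501 with quantile normalisation, -0.0666 with array weights and -0.124 to 0.137 without single arrays. Lss there read -0.0396, -0.0235 and -0.0377 to 0.0579, and Dhcr7 -0.0445 with quantile normalisation. Insig1 in Stra8 against 129SV ES cells read -0.0108, and Msmo1 with differentiation in ES cells -0.0020, with centred arrays, and Npc2 with differentiation in adult cells 0.0019 with array weights.

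With centred arrays, the share of higher genes among all genes called in differentiated against undifferentiated cells went from 50.5% to 37.1% in ES and from 46.0% to 35.9% in adult cells, and in Stra8 against 129SV ES cells from 51.6% to 41.5%. Replicate numbers are shared between groups in the labels. The deviations of same-numbered arrays had a mean r of 0.022 (highest 0.44, over 0.1 in 10 of 45 pairs). Those of differently numbered arrays had a mean r of -0.0099 (highest 0.31, over 0.1 in 16 of 90 pairs). With the replicate number as a block, Idi1's difference in response (-0.39) gained a call (adjusted p = 0.0413), and Pmvk's fall in ES cells (-0.20) lost it (adjusted p = 0.0618). Signal over background could not be assessed.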

Other observations

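Fatty acid synthesis, which SREBP-1 is known to drive, was measured with 8 of 8 listed genes. The shares of all genes called in the 4 comparisons apply here and to each list below. They were 46.1% (adult against ES, 129SV), 28.3% (adult against ES, Stra8), 55.2% (differentiation, ES) and 59.7% (differentiation, adult). In adult against ES 129SV cells 4 were higher and 2 lower, led by Fasn, fatty acid synthase (1.197 ± 0.048, limma adjusted p = 7.02e-12), and Me1, malic enzyme (-1.05). In Stra8 cells 3 were higher and 4 lower, led by Acss2 (-0.72) and Scd1 (0.70). With differentiation 3 rose and 4 fell in ES cells, led by Elovl6 (-0.83) and Me1 (0.83), and 2 rose and 5 fell in adult cells, led by Me1 (1.94) and Acly, the ATP citrate lyase (-0.72).

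Among 6 measured lipoprotein genes 4 rose and 0 fell with differentiation in ES cells, 1 rose and 5 were not called in adult cells, 1 was higher and 1 lower in adult than in ES 129SV cells, and 0 were called in Stra8 (limma; 0 also at an unadjusted p under 0.05). Mttp, which loads lipid onto apolipoprotein B, rose with differentiation by 1.76 ± 0.065 in ES cells and by 2.36 ± 0.065 in adult cells (limma adjusted p = 5.23e-13 and 2.16e-14). Apoa1 rose by 1.07 in ES cells. Of 6 measured efflux genes, 3 rose and 1 fell in ES cells, 2 rose and 2 fell in adult cells, and in adult against ES cells 0 were higher and 4 lower in 129SV and 0 and 3 in Stra8. The sterol exporter Abca1 rose by 0.42 in ES cells while Abcg1 fell (-0.78), and Abca1 (1.38) and Lpcat3 (1.29) rose in adult cells. Abca1 was lower in adult than in ES cells in 129SV (-0.68) and in Stra8 (-0.88). Of 6 measured genes of esters, oxysterols and bile acids, 3 rose and 2 fell in ES cells, 3 rose and 1 fell in adult cells, and in adult against ES cells 1 was higher and 3 lower in 129SV and 3 and 0 in Stra8. Ch25h, cholesterol 25-hydroxylase, was lower in adult than in ES 129SV cells (-2.58 ± 0.084) and higher in Stra8 (1.26), and fell with differentiation in ES cells (-3.14). Cyp27a1, a sterol hydroxylase, rose by 1.58 in ES and 1.88 in adult cells, and Lipa, the lysosomal lipase, rose by 1.72 in adult cells. Cyp7b1 was lower in adult than in ES 129SV cells (-1.07) and higher in Stra8 (1.10).

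Of 7 measured genes of the non-sterol isoprenoid branches, 3 rose and 2 fell in ES cells, 2 rose and 2 fell in adult cells, and in adult against ES cells 1 was higher and 3 lower in 129SV and 0 and 2 in Stra8. Fntb, a farnesyltransferase subunit, fell with differentiation in ES (-0.92) and adult cells (-0.76), while Dhdds rose in ES cells (0.45) and Ggps1 in adult cells (0.90). Fnta, the partner subunit, was higher in adult than in ES 129SV cells (0.86) and lower in Stra8 (-0.60).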
